A study of Mus musculus with 4 samples.

Results

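The cells described here were CD4 T cells whose receptor sequences held 1 beta chain and 2 productive alpha contigs, called dual-alpha cells, set against cells with 1 beta chain and 1 productive alpha chain, called single-alpha cells. Members were the barcodes with at least 500 detected genes, under 10% mitochondrially encoded UMIs (counts of distinct molecules) and exactly 1 productive beta contig in the deposited contig tables. The rule took 707 dual-alpha and 4998 single-alpha cells from the 7788 barcodes of tumor-bearing lung, and 571 dual-alpha and 4889 single-alpha cells from the 7745 barcodes of normal lung. In all, 1278 of 15533 barcodes were dual-alpha cells. In 2 of them, both in normal lung, the alpha contigs had the same CDR3 sequence.

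Both groups were C57BL/6 mice, with no transgene or deletion named in the labels. Tumor-bearing mice had received TC1 cells, a transplantable line made from mouse lung epithelium, through the tail vein and were sampled 3 weeks later, and the normal lungs came from age-matched mice. Per the labels' protocols the lungs were perfused and digested, lymphocytes were enriched on Percoll and by magnetic selection, and live CD4+ cells were sorted, so a cell that lacks CD4 at its surface was not sampled. Each tissue gave 1 cell suspension, 1 gene expression library made from the 5′ end of transcripts and 1 receptor library, both from a shared cDNA pool, and the number of mice behind a suspension was not given in the sources used here. With 1 library per tissue no test was made. Every difference below is a value of these libraries, and any difference in handling between them cannot be told apart from the difference in tissue.

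A T cell receptor is a pair of an alpha and a beta chain, each joined from V and J gene segments (and D segments for beta) during development in the thymus. A productive beta rearrangement stops further rearrangement at the beta locus, whereas the alpha locus keeps rearranging on both chromosomes, with V segments farther out joined to J segments farther in, until a receptor passes positive selection. A mature T cell can therefore carry productive alpha chains from both chromosomes, and such cells are known for a possible pair of specificities. Foxp3, the transcription factor that defines regulatory T cells, was used only to split the cells into those with at least 1 Foxp3 UMI and those with none.

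The cells of the rule held 25908845 UMIs in tumor-bearing and 22002310 in normal lung, with medians of 4241 and 3965 per cell. No kept barcode had more than 2 productive alpha or beta contigs. The libraries shared 86 barcode sequences, of which 46 were cells of the rule in both, and none of these had the same beta chain in both. The sorted identity held in the dual-alpha cells, with Cd4, the coreceptor, at 219 and 240 CPM (UMIs of the gene scaled to a fixed total of the summed cells' UMIs) in the tumor and normal library. Cd8a, which marks the other main T cell lineage, had 1 and 0 UMIs there, while Cd8b1, which codes for its partner chain, had 58 and 36 UMIs, at 16.1 and 14.4 CPM beside 15.3 and 15.6 CPM in single-alpha cells. The B cell gene Ms4a1, the myeloid gene Lyz2, the NK cell gene Ncr1 and the hemoglobin genes were at 0 in the dual-alpha cells of both libraries. Other B cell, myeloid and NK cell genes were found there. Among them were Ighm with 688 and 386 UMIs, Cd79b with 19 and 4, Lst1 with 20 and 15 and Klrk1 with 2 and 5. Intervals in brackets are 95% intervals. They cover counting error only or, for a ratio of medians, the sampling of the dual-alpha cells alone.

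Both alpha chains could be followed through clones, that is, through cells of 1 library with the same beta V gene, J gene and CDR3 nucleotide sequence. The CDR3 is the stretch across the joint, which makes most of the contact with antigen. In 7 clones both alphas were found together in at least 3 cells, 6 of them in the tumor library. The CDR3 sequences of the 2 tumor clones with the most such cells are shown because the same pair of alphas beside the same beta in several droplets is what the sharing of both chains between sister cells rests on. Alpha genes lie on chromosome 14 and beta genes on chromosome 6. Capitals mark the bases at the joint that match neither the most common start of that V gene nor the most common end of that J gene among the deposited CDR3s. No germline segment sequences were compared, so a capital base can still come from a V, D or J segment.
Tumor clone 1, beta, TRBV12-2+TRBV13-2 and TRBJ2-5: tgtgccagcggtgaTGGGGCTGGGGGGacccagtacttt
Tumor clone 1, alpha, TRAV7D-2 and TRAJ42: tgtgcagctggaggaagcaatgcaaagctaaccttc
Tumor clone 1, alpha, TRAV13D-2 and TRAJ27: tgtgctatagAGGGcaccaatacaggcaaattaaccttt
Tumor clone 2, beta, TRBV3 and TRBJ2-1: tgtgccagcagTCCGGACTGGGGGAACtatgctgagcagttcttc
Tumor clone 2, alpha, TRAV3D-3 and TRAJ23: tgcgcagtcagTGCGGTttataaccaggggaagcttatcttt
Tumor clone 2, alpha, TRAV6D-5 and TRAJ18: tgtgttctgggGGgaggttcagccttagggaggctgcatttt

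Tumor clone 1 had 6 cells, all with Foxp3 UMIs, and 5 of them held both alphas. Its first alpha, with no unmatched base at the joint, had 3, 8, 9, 13 and 9 contig UMIs in those 5 cells, and its other alpha had 6, 10, 7, 8 and 4. The sixth cell held the first alpha alone, at 5 UMIs. Neither chain of this clone was the more abundant in every cell. Tumor clone 2 also had 6 cells, all with Foxp3 UMIs, and again 5 held both alphas, at 5, 12, 8, 6 and 12 UMIs for TRAV3D-3 and 8, 7, 8, 3 and 7 UMIs for TRAV6D-5. Its remaining cell held only TRAV6D-5. In the 1 such clone of normal lung, called clone 7, none of the 11 cells had a Foxp3 UMI, 7 held both alphas, and the other 4 all held the same one of the pair, at 10, 4, 8 and 8 UMIs. The alpha missing there ranged from 1 to 10 UMIs in the 7 cells that had it.

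Dual-alpha cells made up 12.4% (11.5 to 13.3) of the cells of the rule in tumor-bearing lung and 10.5% (9.66 to 11.3) in normal lung. The ratio between the libraries was 1.19 (1.06 to 1.33). A productive alpha was missing more often in the normal library, in 966 of 6426 barcodes with 1 beta, against 628 of 6333 in the tumor library. Whether this difference in detection moved the dual-alpha share was not tested. In the tumor library the share was higher among cells with Foxp3 than among cells without it. It was 16.5% (14.1 to 19.1), 148 of 896 cells, with at least 1 Foxp3 UMI and 11.6% (10.7 to 12.6), 559 of 4809 cells, with none, a ratio of 1.42 (1.18 to 1.71). In the normal library the corresponding shares were 8.61% (4.66 to 14.3), 13 of 151 cells, and 10.5% (9.70 to 11.4), 558 of 5309 cells, a ratio of 0.819 (0.433 to 1.41) that lay on the other side of 1 with an interval spanning it. Foxp3-positive cells were accordingly 20.9% of dual-alpha and 14.97% of single-alpha tumor cells, and 2.28% and 2.82% of normal cells.

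The share of dual-alpha cells moved with the number of UMIs per cell, mostly through the deepest quintile. From the lowest to the highest quintile of UMIs it was 9.54, 9.39, 12.5, 11.7 and 18.8% in the tumor library and 9.25, 9.23, 10.8, 9.07 and 13.9% in the normal library. Over bins of the beta contig's own UMIs, from 1 to 4, through 5 to 8 and 9 to 12, to over 12, the share was 11.3, 12.1, 12.1 and 14.3% in tumor-bearing lung and 11.3, 10.1, 10.0 and 10.8%, with no rise, in normal lung. Foxp3-positive tumor cells were deeper than Foxp3-negative ones, at medians of 4874.5 and 4164 UMIs. With the quintiles weighted equally the tumor shares were 14.96% and 11.9%, a ratio of 1.26. Thinning each cell's gene expression to 2705 UMIs, with 318 shallower cells left out, gave 16.3% and 12.1%, but it evens the depth of the Foxp3 call alone and not that of the contigs behind the dual-alpha call. Without the deepest quintile, a setting added after the data were seen, they were 13.1% (10.4 to 16.3) and 10.5% (9.54 to 11.5), and the ratio of 1.25 had an interval of 0.960 to 1.62 that spanned 1. For normal lung the ratio was 0.702 with equal quintiles and 0.505 (0.163 to 1.19), on 5 Foxp3-positive dual-alpha cells, without the deepest quintile. It turned to the other side of 1, at 1.06, when cells with 2 or more Foxp3 UMIs were compared with cells at 0.

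**Figure D1:**
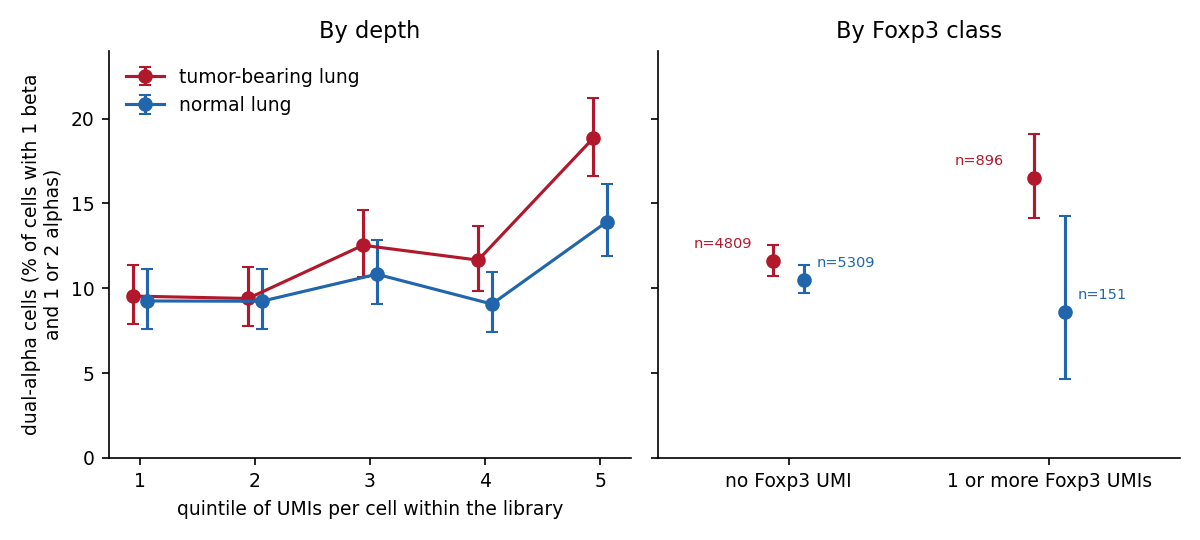
Share of dual-alpha cells (y axis, % of cells with 1 beta and 1 or 2 productive alphas) by quintile of UMIs per cell (left) and by Foxp3 class (right), for tumor-bearing lung (red) and normal lung (blue), with 95% Clopper-Pearson intervals. The top quintile reached 18.8% in tumor-bearing and 13.9% in normal lung, and the Foxp3-positive share was 16.5% in tumor-bearing and 8.61% in normal lung.

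Dual-alpha cells held slightly more RNA molecules than single-alpha cells in the tumor library, and the difference in the normal library was smaller than its interval. Median UMIs per cell were 4522 and 4204.5 in the tumor library, a ratio of 1.08 (1.04 to 1.11), and 4031 and 3962 in the normal library, a ratio of 1.02 (0.991 to 1.05). Median detected genes were 1639 and 1538, and 1467 and 1438. The dual-alpha cells differed from the single-alpha cells mainly in their deep tail. Cells with over 2 times the single-alpha median made up 9.05% (7.04 to 11.4) of dual-alpha and 2.64% (2.21 to 3.12) of single-alpha cells in the tumor library, and 5.43% (3.72 to 7.62) and 0.880% (0.637 to 1.18) in the normal library. Among Foxp3-positive tumor cells the corresponding shares were 23.6% and 9.22%.

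Barcodes with 2 productive betas and 2 productive alphas, which fall outside the rule, served as a comparison, since a droplet that holds a pair of cells would carry up to 2 chains of each kind. There were 197 in the tumor and 202 in the normal library. Their median UMIs were 8071 and 7388.5, and 45.2% and 36.1% of them had over 2 times the single-alpha median. The dual-alpha median was thus near the single-alpha median, and the share of dual-alpha cells above that depth lay between the shares of the single-alpha cells and of the 2-beta barcodes. How many dual-alpha barcodes hold more than 1 cell was not tested.

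Each alpha chain of a dual-alpha cell was found at about the level of the alpha chain of a single-alpha cell. In the tumor library the alpha with more contig UMIs had a median of 5 (quartiles 4 and 8) and the weaker alpha a median of 3 (quartiles 2 and 4), beside 4 (quartiles 3 and 6) for the alpha of single-alpha cells. The normal library had medians of 4, 3 and 3. The beta chain had a median of 8 UMIs in dual-alpha and in single-alpha cells of both libraries. Dual-alpha cells thus carried more alpha contig UMIs in all, at medians of 9 in the tumor and 7 in the normal library, with the beta chain level at the same median. Since the rule asks for 2 alpha contigs on this side, the alpha total is not independent of the rule.

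The weaker alpha was rarely a trace. It supplied 37.2% (36.04 to 38.4) of the alpha contig UMIs of dual-alpha cells in tumor-bearing and 38.1% (36.7 to 39.6) in normal lung, and the alphas were equal in 100 cells (14.1%) and 129 cells (22.6%). It rested on 1 UMI in 10.2% (8.05 to 12.7) and 14.01% (11.3 to 17.1) of dual-alpha cells. The alpha of single-alpha cells rested on 1 UMI about as often, at 10.1% (9.30 to 10.99) and 13.4% (12.5 to 14.4). The weaker chain had less than 0.25 of the stronger chain's UMIs in 6 tumor and 7 normal cells.

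**Figure D2:**
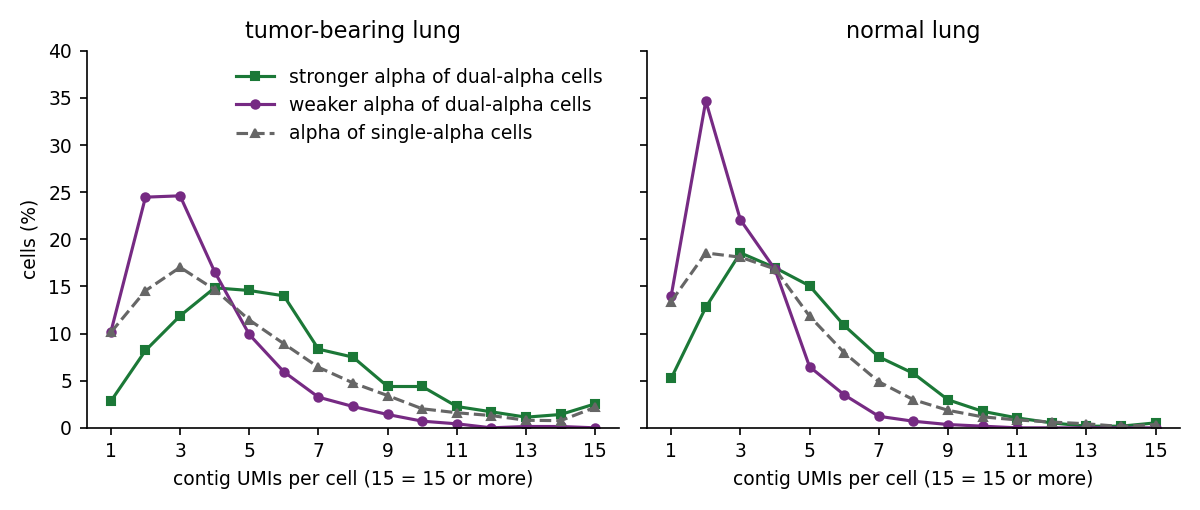
Percent of cells (y axis) at each number of contig UMIs (x axis, 15 stands for 15 or more) for the stronger and the weaker alpha of dual-alpha cells and the alpha of single-alpha cells, in each library. The weaker alpha had a median of 3 UMIs in both libraries, and single-alpha cells had medians of 4 and 3.

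The gene expression libraries held transcripts of both alphas. In the tumor library a UMI of the weaker alpha's own Trav gene was found in 66.1% (62.4 to 69.5) of dual-alpha cells, beside 62.5% (58.8 to 66.1) for the stronger alpha's gene and 67.3% (66.0 to 68.6) for the alpha of single-alpha cells. The normal library gave 65.1%, 61.6% and 63.6%. Single-alpha cells whose receptor used another V gene had a UMI of the same Trav genes in 0.666% of cells in the tumor and 0.542% in the normal library. Even where the weaker alpha rested on 1 contig UMI, its Trav gene was found in 50 of 72 tumor and 55 of 80 normal cells. Since both libraries of a tissue were made from 1 cDNA pool, these are repeat readings of the same droplets and not of separate cells.

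Summed over all Trav genes, dual-alpha cells held 5.98 UMIs per cell and single-alpha cells 3.65 in the tumor library, and 4.52 and 2.78 in the normal library. Trac, the constant gene shared by all alpha chains, was higher in dual-alpha cells at 281 against 237 CPM, a ratio of 1.19 (1.11 to 1.27), and at 256 against 209 CPM, a ratio of 1.22 (1.12 to 1.33). The constant genes of the beta chain gave ratios of 0.994 (0.890 to 1.11) and 1.10 (0.990 to 1.23) for Trbc1 and 1.06 (0.993 to 1.13) and 1.07 (0.994 to 1.16) for Trbc2. Cd3e, a signalling subunit that every surface receptor needs, had ratios of 1.04 (1.00 to 1.07) and 1.03 (0.988 to 1.07). Over all cells, Trac was thus the gene of the receptor complex whose interval lay furthest from 1, and it stayed under 1.5-fold. The sides were set by the number of alpha contigs found in the same cDNA pool. The Trav sums and the Trac ratios are therefore not independent of the rule. In the tumor library Trac had ratios of 1.13 (0.991 to 1.29) within Foxp3-positive and 1.18 (1.09 to 1.28) within Foxp3-negative cells. Trbc2 was further from 1 than Trac within Foxp3-positive cells, at 1.32 (1.14 to 1.52) in tumor-bearing and 0.691 (0.394 to 1.14) in normal lung, and had a ratio of 1.03 (0.954 to 1.11) within Foxp3-negative tumor cells.

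The J genes of the alphas of 1 cell lay near each other along the locus. The TRAJ genes, which span chr14:54155005-54218842 in the GRCm38.p6 annotation, are numbered downward toward the constant gene, and all 43 J genes in use were found there. Over the 707 dual-alpha cells of the tumor library Spearman's rho between the J numbers of the alphas was 0.594, with a median distance of 8 J numbers or 8.19 kb. Over the 571 of the normal library it was 0.688, with a median distance of 7 J numbers or 6.95 kb. The alphas were within 5 J numbers of each other in 37.6% (34.0 to 41.3) and 40.6% (36.6 to 44.8) of dual-alpha cells, and over 20 apart in 8.91% (6.92 to 11.3) and 6.48% (4.60 to 8.82). These correlations are descriptions over cells of 1 library and carry no test.

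The barcodes with 2 betas and 2 alphas showed far less of this nearness. Their rho was 0.0789 in the tumor and 0.162 in the normal library, with median distances of 12 and 11 J numbers, and the alphas were over 20 apart in 26.9% (20.8 to 33.7) and 25.7% (19.9 to 32.3). The V genes of dual-alpha cells, spread over a much longer part of chromosome 14, were less closely matched, with a rho between map positions of 0.204 in both libraries against 0.116 and 0.113 for the 2-beta barcodes. Single-alpha cells gave a further reading, because 1847 of 4998 in the tumor library (37.0%) and 1409 of 4889 in the normal library (28.8%) also had a full-length alpha contig that was not productive. In those cells rho between the J numbers of the productive and the non-productive alpha was 0.685 and 0.709, against 0.594 and 0.688 in dual-alpha cells. The 2 alphas were within 5 J numbers in 43.5% (41.2 to 45.8) of those tumor cells, against 37.6% (34.0 to 41.3) of dual-alpha tumor cells. For normal lung these shares were 42.6% (40.0 to 45.2) and 40.6% (36.6 to 44.8). A full-length alpha contig that was not productive was also found in 50 tumor (7.07%) and 30 normal (5.25%) dual-alpha cells.

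The nearness of the J genes was lower in the deepest dual-alpha cells. In the top quintile of UMIs rho was 0.403 over 215 tumor cells and 0.614 over 152 normal cells, against 0.668 over 492 and 0.717 over 419 in the lower quintiles. In the tumor library Foxp3-positive dual-alpha cells had a rho of 0.437 (n = 148) and Foxp3-negative ones 0.628 (n = 559). Within the lower quintiles these values were 0.588 (n = 70) and 0.680 (n = 422), and within the top quintile the Foxp3-positive value was 0.264 (n = 78). With 1 cell kept per clone, rho was 0.602 in the tumor and 0.685 in the normal library.

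**Figure D3:**
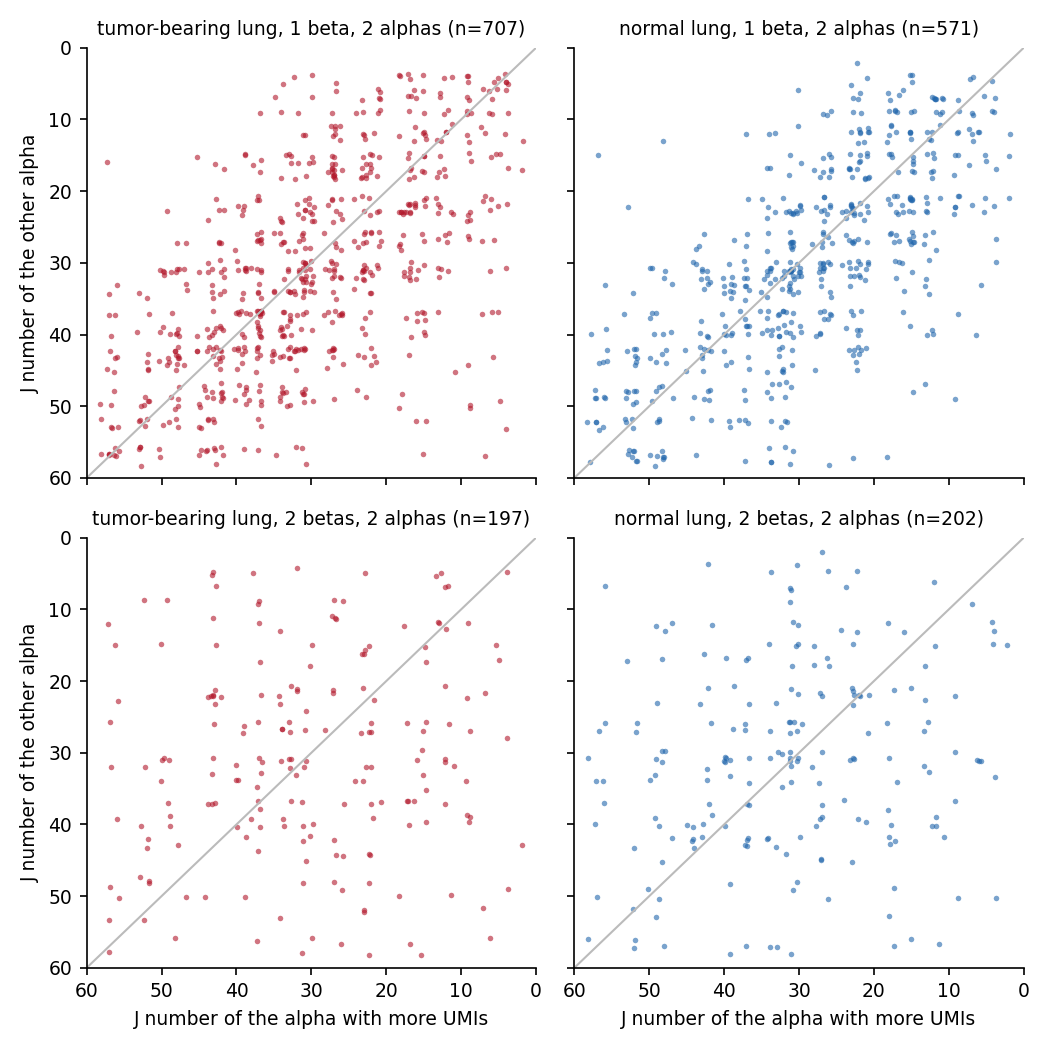
J number of the alpha with more contig UMIs (x axis) against that of the other alpha (y axis), 1 point per barcode with a small jitter, for dual-alpha cells (top) and barcodes with 2 betas and 2 alphas (bottom). Both axes run downward toward the constant gene and the grey line marks equal J numbers. Dual-alpha cells lie along the line (rho 0.594 and 0.688) and the 2-beta barcodes scatter over the panel (rho 0.0789 and 0.162).

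Invariant receptors were almost absent from both sides. The TRAV11 with TRAJ18 alpha of invariant NKT cells was the stronger chain in 1 and the weaker chain in 2 dual-alpha tumor cells and was seen in no dual-alpha normal cell, while 10 and 7 single-alpha cells had it. The TRAV1 with TRAJ33 alpha of MAIT cells was seen in no cell of the rule. An approximate upper limit, 3 divided by the number of cells, was 0.424% of the tumor and 0.525% of the normal dual-alpha cells. This limit is not a Clopper-Pearson interval. The same alpha CDR3 nucleotide sequence occurred with another beta elsewhere in the library for 11.03% (8.82 to 13.6) of stronger and 10.2% (8.05 to 12.7) of weaker chains of the tumor dual-alpha cells, beside 12.4% (11.5 to 13.3) of the alphas of single-alpha cells. For the normal library these shares were 9.63%, 11.03% and 10.5%. The weaker chains were therefore not more widely shared than the others by more than the intervals.

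Sister cells of a clone mostly carried the same pair of alphas. Dual-alpha cells of 1 clone shared both alphas in 45 of 46 pairs of cells from tumor-bearing and 26 of 27 from normal lung. Clone 7 gave 21 of the pairs in the normal library, and without it 5 of 6 pairs shared both. Of the 20 tumor clones with at least 2 dual-alpha cells, 19 had the same pair in every dual-alpha cell, as did 6 of 7 normal clones.

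Where a dual-alpha tumor cell had a single-alpha sister, the sister more often held the stronger chain than the weaker one. Among 58 such pairs in the tumor library the sister had the stronger chain in 37, the weaker chain in 14 and neither in 7. Among 46 in the normal library these were 27, 11 and 8, and without clone 7, which gave 28 of the pairs, 7, 3 and 8. In clones whose pair of alphas was seen in at least 2 cells, 8 of 56 tumor cells (14.3%, 6.38 to 26.2) and 4 of 21 normal cells (19.0%, 5.45 to 41.9) had only 1 of the pair in the contig table, the normal ones all in clone 7. For comparison, pairs of single-alpha cells in 1 clone had the same alpha in 349 of 417 cases (83.7%) in tumor-bearing and 504 of 531 (94.9%) in normal lung. The largest clone of normal lung held 29 cells, all single-alpha, and gave most of those 531 pairs. The normal share thus mostly describes 1 clone.

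**Figure D4:**
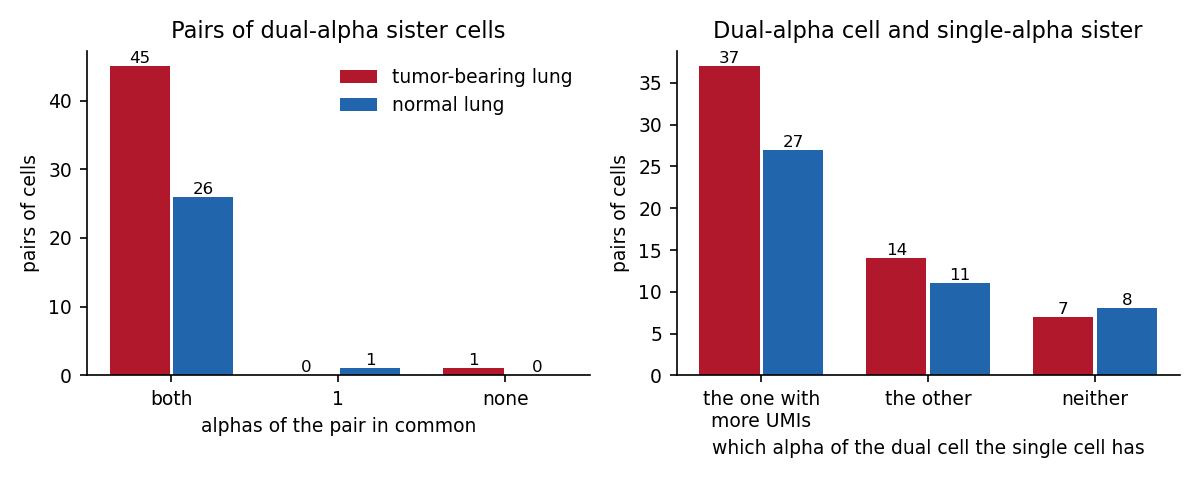
Number of cell pairs within clones (y axis, from 0) by the alphas they had in common, for pairs of dual-alpha cells (left) and for a dual-alpha cell with a single-alpha sister (right), in tumor-bearing (red) and normal (blue) lung. Pairs of dual-alpha cells shared both alphas in 45 of 46 and 26 of 27 cases.

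Dual-alpha cells of the tumor library were somewhat more often in clones of 2 or more cells than single-alpha cells, and within a Foxp3 class the shares overlapped. The shares were 10.0% (7.93 to 12.5), 71 of 707, and 7.40% (6.69 to 8.16), 370 of 4998, a ratio of 1.36 (1.04 to 1.75). The normal library gave 5.78% (4.01 to 8.02) and 5.03% (4.44 to 5.68), a ratio of 1.15 (0.773 to 1.66). Foxp3-positive tumor cells were the ones mostly found in clones, at 39.2% (31.3 to 47.5) of dual-alpha and 34.5% (31.1 to 38.02) of single-alpha cells, a ratio of 1.14 (0.839 to 1.52). Foxp3-negative tumor cells gave 2.33% and 2.64%, a ratio of 0.882 (0.456 to 1.57). The largest clone that held a dual-alpha cell had 9 cells in the tumor and 11 in the normal library, and the largest that held a single-alpha cell had 11 and 29. For normal lung the ratio fell below 1, to 0.758, with the deposited clonotype identifiers and to 0.793 when every contig needed 2 UMIs.

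Gene expression of dual-alpha and single-alpha cells was nearly the same in both libraries. Of 8250 genes with at least 100 UMIs in each library, 3 were at least 1.5-fold higher (0.0364%) and 4 at least 1.5-fold lower (0.0485%) in dual-alpha cells of both libraries, which is the rule for a call here. In the tumor library alone 49 genes were past 1.5-fold higher (0.594%) and 81 lower (0.982%), and in the normal library alone 127 higher (1.54%) and 157 lower (1.90%). The median log2 ratio over all these genes was 0.02 in the tumor and 0.03 in the normal library. No gene with at least 200 UMIs in each library was called in both, so each called gene had fewer than 200 UMIs in at least 1 library.

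The higher genes were Hist1h2ac and Hist1h2ae, which code for the core histone H2A, and Ttc39c, a gene with tetratricopeptide repeats. Hist1h2ac stood at 8.86 CPM in dual-alpha and 5.20 CPM in single-alpha tumor cells, a ratio of 1.70 (1.11 to 2.54), and at 10.4 and 6.25 CPM in normal lung, a ratio of 1.67 (1.05 to 2.56). Ttc39c had ratios of 1.54 (1.32 to 1.79) and 1.62 (1.02 to 2.48), and in the tumor library its log2 ratio went from 0.62 to 0.26 when the dual-alpha side was weighted to the Foxp3 shares of the single-alpha side. Hist1h2ae had ratios of 2.40 (1.62 to 3.49) and 1.51 (0.935 to 2.36), but 1 tumor cell gave 15 of its 40 UMIs in dual-alpha cells. Histone H2A genes are near-identical copies, so reads may be split between them.

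The lower genes were Dnmbp, which codes for an exchange factor of the small GTPase Cdc42, Tha1, a threonine aldolase, Mrpl53, a protein of the mitochondrial ribosome, and Tcaim. Dnmbp had 6 UMIs in dual-alpha and 134 in single-alpha tumor cells, a ratio of 0.277 (0.0997 to 0.618), and 7 and 95 in normal lung, a ratio of 0.577 (0.226 to 1.24). Tha1 had ratios of 0.622 (0.406 to 0.919) and 0.422 (0.190 to 0.820). Mrpl53, at 0.660 (0.375 to 1.09) and 0.367 (0.132 to 0.821), and Tcaim, at 0.662 (0.361 to 1.13) and 0.593 (0.278 to 1.13), had an interval that spanned 1 in at least 1 library.

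Next in the order of the ratio nearer to 1 came genes that missed 1.5-fold in a library. On the higher side these were Aste1, at 1.49 and 1.63, Kdm1a, a histone demethylase, at 1.49 and 1.55, Lztfl1, a regulator of ciliary traffic, at 1.72 and 1.47, and Ccr4, a chemokine receptor of Th2 and regulatory cells, at 1.41 and 1.67. Mgme1, Rrm2, which is needed to make deoxynucleotides, and Gm15283 followed, between 1.39 and 1.52. On the lower side Gpat3, Gm42722, Plscr3, Zfp74, Acy1 and Mmab lay between 0.493 and 0.714. Of these 13 genes, Kdm1a had the most even pair of ratios on the higher side, with intervals of 1.14 to 1.93 and 1.10 to 2.13. Within Foxp3-negative cells Ccr4 had ratios of 1.04 (0.720 to 1.47) in the tumor and 1.57 (1.11 to 2.17) in the normal library. Its tumor ratio within Foxp3-positive cells was 1.25 (0.969 to 1.60).

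**Figure D5:**
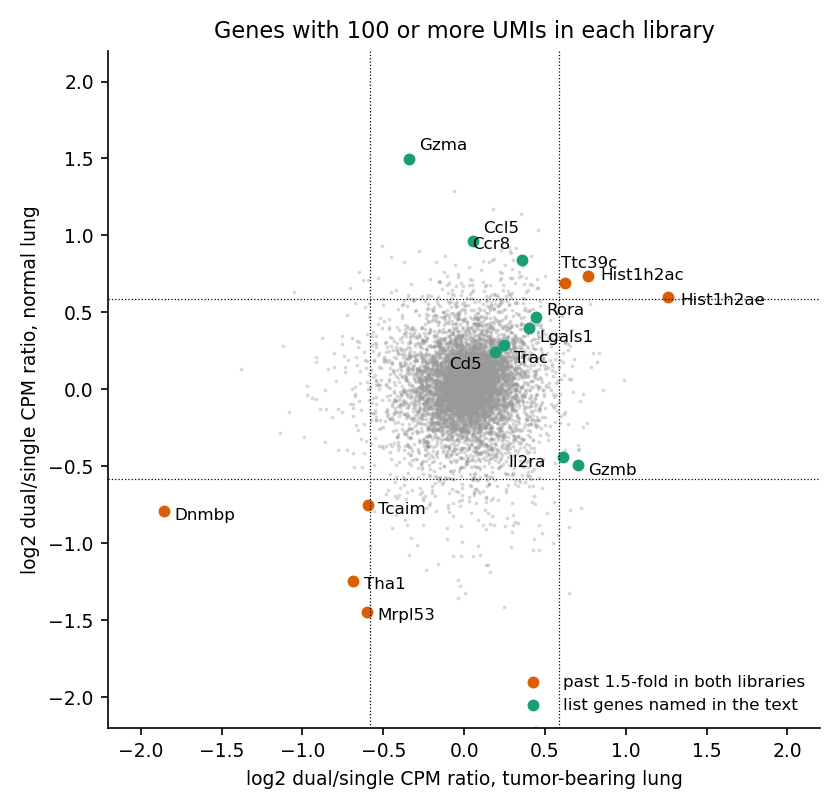
Log2 ratio of dual-alpha to single-alpha CPM in tumor-bearing lung (x axis) and normal lung (y axis) for the genes with at least 100 UMIs in each library, with Trac added. Dotted lines mark 1.5-fold, orange points the 7 genes past it in both libraries and green points list genes named in the text. The cloud centres near 0, with medians of 0.02 and 0.03.

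Over all cells, no member of any of the gene lists was called in both libraries. Of 15 genes of regulatory T cell identity, 14 had a ratio above 1 in tumor-bearing and 9 in normal lung, with median log2 ratios of 0.34 and 0.14 beside 0.02 and 0.03 over all genes. Il2ra, the high-affinity chain of the IL-2 receptor, was at 137 against 89.8 CPM in the tumor library, a ratio of 1.53 (1.38 to 1.68), and at 6.02 against 8.15 CPM in the normal library, a ratio of 0.738 (0.404 to 1.26). Foxp3 itself had ratios of 1.29 (1.18 to 1.40) and 0.932 (0.654 to 1.30). Ccr8, a chemokine receptor of tissue regulatory T cells, had ratios of 1.28 (1.18 to 1.39) and 1.79 (1.37 to 2.32). Its tumor ratio was 1.03 (0.934 to 1.12) within Foxp3-positive and 0.911 (0.764 to 1.08) within Foxp3-negative cells. In the normal library its ratio within Foxp3-negative cells was 1.74 (1.31 to 2.29). The tumor dual-alpha cells also held the larger share of Foxp3-positive cells, 20.9% against 14.97%.

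Within Foxp3-positive cells the median log2 ratio of the 10 identity genes with enough counts was -0.12 in tumor-bearing and 0.13 in normal lung, where the dual-alpha side is 13 cells. Il2ra then had a tumor ratio of 1.06 (0.951 to 1.17), Ctla4, an inhibitory receptor, 0.929 (0.880 to 0.980) and Foxp3 0.875 (0.804 to 0.952). Foxp3 UMIs also set this class, so the Foxp3 ratio is not independent of the split, and Foxp3 is among the 10 genes of the median. Dual-alpha cells of the class were deeper in the tumor library, at a median of 5443.5 UMIs against 4778.5. Of 778 genes tested in Foxp3-positive cells, none was called higher (0%) and 3 were called lower (0.386%). These were Lrrc32, the surface anchor of latent TGF-beta, with a tumor ratio of 0.598 (0.461 to 0.765), Tubb2a, a beta-tubulin, at 0.593 (0.409 to 0.840), and Ly6c1 at 0.519 (0.304 to 0.838). In the normal library they had 6, 5 and 5 UMIs in the dual-alpha cells, with ratios of 0.394 (0.142 to 0.883), 0.141 (0.0454 to 0.332) and 0.375 (0.119 to 0.904). In Foxp3-negative cells 4 of 8094 genes were called higher (0.0494%) and 7 lower (0.0865%), neither set holding a list gene. The higher ones were Aste1, Nat2, Ccdc137, at 1.79 (1.10 to 2.81) and 1.75 (1.12 to 2.63), and Lztfl1, at 1.86 (1.35 to 2.53) and 1.51 (1.05 to 2.13).

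Genes that follow the strength of receptor signalling were close to even at the median, with single members further out. Of 12 tested, 6 had a ratio above 1 in the tumor and 9 in the normal library, with medians on the log2 scale of 0.02 and 0.11. Cd5, a brake on receptor signalling whose level is set in the thymus by the strength of self-recognition, was at 292 against 256 CPM in the tumor library, a ratio of 1.14 (1.07 to 1.22), and at 296 against 251 CPM in the normal library, a ratio of 1.18 (1.09 to 1.28). Nr4a1, an early gene of receptor signalling, had ratios of 1.10 (1.06 to 1.14) and 1.08 (1.02 to 1.15). Tnfrsf9, the costimulatory receptor 4-1BB, which is also in the regulatory T cell list, was the member furthest from 1, at 1.37 (1.29 to 1.46) and 2.05 (1.39 to 2.97), the latter on 37 UMIs in dual-alpha cells. Its tumor ratio was 1.00 (0.936 to 1.07) within Foxp3-positive and 0.718 (0.547 to 0.928) within Foxp3-negative cells. The normal ratios of Tnfrsf9 were 1.67 (0.886 to 2.94) and 2.46 (1.45 to 4.02), on 15 and 22 UMIs in dual-alpha cells. Within Foxp3-negative cells the libraries thus lay on opposite sides of 1. Ikzf2, also in both lists, had 1.26 (1.15 to 1.38) and 1.20 (0.882 to 1.60), Nr4a2 0.911 (0.790 to 1.05) and 1.29 (1.12 to 1.48), and Nfkbid 0.990 (0.899 to 1.09) and 1.28 (1.08 to 1.499). Egr1 gave 1.04 (0.963 to 1.13) and 0.942 (0.814 to 1.08), and Nr4a3 0.931 (0.857 to 1.01) and 0.852 (0.752 to 0.962). Within Foxp3-negative cells Cd5 had ratios of 1.08 (0.990 to 1.18) and 1.18 (1.09 to 1.28), and within Foxp3-positive tumor cells 1.03 (0.924 to 1.14).

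Naive and homing genes were slightly lower in dual-alpha cells of the tumor library, where none of 12 had a ratio above 1 and the median log2 ratio was -0.11. Of the same 12, 4 were above 1 in the normal library, with a median of -0.02. Ccr7, which brings T cells into lymph nodes, had ratios of 0.899 (0.865 to 0.935) and 0.948 (0.915 to 0.981). Within Foxp3 classes of the tumor library the list was not lower as a whole, with 6 of 10 tested genes above 1 and a median of 0.19 in Foxp3-positive cells and 5 of 12 and a median of -0.03 in Foxp3-negative cells. Within Foxp3-negative cells Ccr7 had 0.952 (0.913 to 0.992) and 0.965 (0.932 to 1.00). Genes of recombination and recent thymic emigrants gave no called member among 4 tested, and Rag1 and Rag2, the recombinase genes, had 0 UMIs in the dual-alpha cells of both libraries.

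Among genes of activated cells, 10 of 11 tested were above 1 in the tumor and 9 in the normal library, with median log2 ratios of 0.25 and 0.16. Within the tumor library's Foxp3 classes the medians were -0.08 (3 of 7 tested above 1) in Foxp3-positive and 0.02 (8 of 11) in Foxp3-negative cells. Lgals1, a galectin of activated T cells, was at 504 against 382 CPM and at 294 against 223 CPM, a ratio of 1.32 in both libraries (1.25 to 1.39 and 1.22 to 1.43). Within Foxp3-negative cells its ratio was 1.02 (0.925 to 1.12) in the tumor and 1.26 (1.15 to 1.37) in the normal library. The 3 Th17 genes with enough counts were above 1 in both libraries, with medians of 0.35 and 0.65. Of these, Rora, a transcription factor of Th17 and tissue T cells, was at 186 against 137 CPM and 94.7 against 68.4 CPM, ratios of 1.36 (1.25 to 1.48) and 1.38 (1.20 to 1.59). Its ratios within Foxp3-negative cells were 1.21 (1.05 to 1.39) and 1.26 (1.08 to 1.46). Cell cycle genes (12 tested) had medians of -0.04 and 0.14 and interferon response genes (16 tested) 0.07 and -0.01.

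Th1 and cytotoxic genes split between the libraries, with medians of -0.14 and 0.17 over 10 genes. Summed over the list, dual-alpha and single-alpha tumor cells stood at 537 and 471 CPM. The sums were 1364 and 1400 CPM within Foxp3-positive and 243 and 268 CPM within Foxp3-negative tumor cells. Gzmb, which codes for the killing protease granzyme B, was at 172 against 106 CPM in the tumor library, a ratio of 1.63 (1.49 to 1.78), and at 4.41 against 6.20 CPM in the normal library, a ratio of 0.712 (0.346 to 1.32). It was found in 60 dual-alpha tumor cells, and 1 of them gave 77 of its 621 UMIs there. Ccl5, a chemokine of memory and cytotoxic cells, had ratios of 1.04 (0.955 to 1.13) in the tumor and 1.95 (1.84 to 2.06) in the normal library. Gzma had 0.789 (0.446 to 1.31) and 2.82 (2.40 to 3.31). In the normal library the 7 dual-alpha cells of clone 7 gave 73.8% of the Gzma UMIs and 36.1% of the Ccl5 UMIs of all dual-alpha cells. Without that clone the normal ratios were 0.925 (0.688 to 1.22) for Gzma and 1.34 (1.25 to 1.43) for Ccl5, a value added after the data were seen. Ccl5 was found in only 26 normal dual-alpha cells, the 7 of clone 7 among them. A single cell gave 194 of its 1620 UMIs there, so the interval is narrower than so few cells warrant.

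Markers of other cell types differed little between the sides in tumor-bearing lung. In normal lung the NK cell list was higher in dual-alpha cells through the single gene Gzma. Summed over the list, B cell genes stood at 207 CPM in dual-alpha and 209 in single-alpha tumor cells and at 157 in both sides of the normal library, mostly Ighm. Myeloid genes stood at 101 and 100 CPM and at 79.0 and 75.4 CPM, mostly Cst3, which is also expressed outside myeloid cells. Lung epithelial genes stood at 14.1 and 12.96 CPM and at 3.21 and 5.07 CPM, endothelial genes at 82.0 and 78.2 CPM and at 90.7 and 86.9 CPM, with Cldn5 at 0, and gamma delta T cell genes at 4.43 and 3.72 CPM and at 3.21 and 2.56 CPM. NK cell genes stood at 6.09 and 8.61 CPM in the tumor library and at 90.7 and 35.2 CPM in the normal library. Of the normal values, Gzma alone made 85.9 and 30.4 CPM, and 73.8% of its dual-alpha UMIs came from clone 7. Without that clone the normal Gzma ratio was 0.925 (0.688 to 1.22).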

How the data were processed

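The authors deposited raw UMI counts per gene and barcode, per the file headers a matrix written by software version 3.1.0, and per the submitters' processing notes from Cell Ranger on mm10. The deposited contig tables gave chain, V and J genes, CDR3, productivity and counts of UMIs and reads per contig. Which receptor assembler made them, and on which reference, is not given in the sources used here.

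The cell filter left out 120 tumor and 61 normal barcodes. No doublet caller was run, and barcodes with 2 productive betas (533 and 602) fall outside the rule. The alpha with more contig UMIs (then reads) was called the stronger. UMIs were summed per library and side and scaled to CPM. Ratios of counts and of shares have exact conditional intervals, and shares have Clopper-Pearson intervals. A ratio of medians has the order-statistic interval of the dual-alpha median, with the single-alpha median held fixed. All intervals treat cells and UMIs as independent although those of 1 clone or 1 cell are not. Genes named were those with the 10 highest and the 10 lowest ratios, ranked by the library nearer to 1, among genes with 100 UMIs in each library and the same direction in both, without receptor and immunoglobulin segments, mitochondrial, ribosomal, hemoglobin and sex-linked marker genes, plus members of the gene lists. The CDR3 start of a V gene seen in fewer than 20 distinct CDR3s was taken from its family. The sequences of clone 7 are not reported here. The members and lists were chosen with earlier results of these data known. J and V positions came from the RefSeq annotation of GRCm38.p6, where all V and J genes in use were matched. The ratio step was tested on simulated data. Work was done in Python 3.11.15 with numpy 2.4.6, pandas 2.3.3 and scipy 1.17.1. Alternatives were other cell filters, a contig minimum of 2 UMIs, no barcodes above the 95th percentile of UMIs, 1 cell per clone and side, thinning, other Foxp3 cuts, scalings, gene minimums and clone definitions.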

Additional observations from a re-analysis of the deposited data

Results flagged for a closer look

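The share of dual-alpha cells by Foxp3 class differed in direction between the libraries at 1 or more Foxp3 UMIs. The ratio of the share in Foxp3-positive to that in Foxp3-negative cells was 1.42 (1.18 to 1.71) in tumor-bearing lung and 0.819 (0.433 to 1.41) in normal lung, where it rests on 13 dual-alpha cells, its interval spans 1 and it turns to 1.06 at 2 or more Foxp3 UMIs. The difference between the libraries was not tested. Gpr83, a receptor gene of resting regulatory T cells, also moved in opposite directions, with a dual to single CPM ratio of 1.496 (1.06 to 2.07) in tumor-bearing lung and 0.518 (0.244 to 0.980) in normal lung, on 47 and 10 UMIs in dual-alpha cells. This difference was not tested either.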

How the results depend on the processing

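Of 128 values recomputed under an alternative, 116 stayed within the interval of the reported value or, for a count of genes, within 1.5 times it. The counts of called genes moved most. Genes called higher numbered 1 without the top 5% of barcodes by UMIs, 6 with 1 cell per clone and side, 5 with the mean of CPM per cell, 14 with a minimum of 50 UMIs and 0 with a minimum of 200. Genes called lower numbered 1 at 1000 genes and under 5% mitochondrial UMIs, 18 with a minimum of 50 UMIs, 0 with a minimum of 200, and 12 when the cell with most UMIs of the gene was left out on each side, which takes more from the smaller dual-alpha side by construction. The ratio of clone shares in the normal library was 0.758 with the deposited clonotype identifiers, which by construction separate sister cells in which a different number of alphas was found. Of the normal pairs of dual-alpha sisters, 100% shared both alphas under the stricter cell filter and with 2 UMIs per contig. Of 480 values of the 20 named genes, 476 stayed within their interval and none of the called genes changed direction. With 1 library per tissue no library could be left out. No paired analysis was possible because each group is 1 library and no test was made. Depth limits the Foxp3-positive class of the normal library, with 13 dual-alpha cells, and genes with few UMIs.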
